A study of Mus musculus with 2 samples.

Results

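Expression of 8 genes of the red cell lineage was followed across the fracture sites of a Control and a Loaded mouse femur, 8 of the 19465 genes counted. They were chosen by symbol, with no threshold on their values, and form 2 sets. The globins are *Hba-a2*, *Hbb-bs* and *Hbb-bt*. The erythroblast genes are *Alas2*, *Alad*, *Fech*, *Slc4a1* and *Dmtn*. The question was how many globin counts came with each erythroblast gene count at bone spots, beside the other regions. No region was known to be blood, so there was no ratio for blood, and the ratio cannot sort blood from marrow. *Slc4a1* and *Dmtn* belong neither to hemoglobin nor to heme synthesis and encode proteins of the red cell membrane and its skeleton.

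Female bone cell reporter (BCR) mice, whose reporters label *Ibsp* with eGFP and *Acp5* with mCherry, received a femoral osteotomy at 12 weeks of age and were euthanized at 17 weeks, and both groups carried an external fixator. The Loaded mouse received cyclic loading of the femur from week 3 to week 5 after surgery, and the Control mouse was sham-loaded. Visium counts unique molecular identifiers (UMIs) of probe pairs that bind transcripts in a formalin-fixed, paraffin-embedded section, at a grid of spots that each cover several cells. There was 1 section of 1 femur per group, so spots are not replicates of a condition, and no test was run. Every interval given here is a 95% interval. Intervals on a share of spots take each spot as an independent draw and describe the section only. All others are for counting error only.

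In total, 9002147 UMIs were counted at the 1962 Control spots and 4910716 at the 1436 Loaded spots, and 1898 and 1431 of these spots passed the filter of 500 UMIs and 250 genes. Bone spots, selected by the study on the stained section between the middle fixator pins, numbered 131 in Control and 146 in Loaded. Cavity spots are the 162 Control and 179 Loaded retained non-bone spots between the outer edges of the bone of both sides. They were found from spot positions without the section images, so gaps within the bone of a side also count as cavity. Of the granulocyte-rich spots defined next, 45 in Control and 57 in Loaded lie among them. All remaining retained spots are called outer (1605 Control, 1106 Loaded), and these include marrow beyond the ends of the bone regions. Muscle-rich spots (1085 and 708) are non-bone spots in which 22 muscle genes reach 10% of the UMIs, and granulocyte-rich spots (177 and 128) are the 10% of non-bone spots with the highest share of 12 granulocyte genes. The osteoblast list was higher in bone than in outer spots in both sections, with 2.01% against 0.743% of UMIs in Control and 6.49% against 0.967% in Loaded. The 2 sections shared 557 barcodes, which are addresses on the capture grid and not cells.

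Hemoglobin is built from alpha and beta globin chains and heme. Erythroblasts in marrow synthesize both: *Alas2* encodes the erythroid form of the first enzyme of heme synthesis, *Alad* the next enzyme, and *Fech* the ferrochelatase that inserts iron into the finished ring. *Slc4a1* encodes band 3, the anion exchanger of the red cell membrane, and *Dmtn* encodes dematin, an actin-bundling protein of the membrane skeleton. Young red cells in the circulation still hold globin message after much of the rest has been lost. *Alad* and *Fech* are made in all cells that synthesize heme, so that, unlike *Alas2*, they are not particular to erythroid cells.

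The copies of the globin genes are hard to tell apart. The GENCODE transcripts of *Hba-a2* and its neighbor *Hba-a1*, which is not among the counted genes, were identical at 537 of 538 aligned bases. Those of *Hbb-bs* and *Hbb-bt* were identical at 575 of 618 aligned bases, or 93.0%. The *Hba-a2* counts may therefore hold *Hba-a1* transcripts, and the split between *Hbb-bs* and *Hbb-bt* is uncertain to the extent that their probes bind both. In GRCm38 (GENCODE M21), *Hba-a2* lies on chromosome 11 (32296489 to 32297298, plus strand) and *Hbb-bs* and *Hbb-bt* on chromosome 7 (103826534 to 103828096 and 103812524 to 103813996, both minus strand). *Alas2* lies on chromosome X (150547375 to 150570638, plus strand) and *Alad* on chromosome 4 (62509169 to 62519918, minus strand). *Slc4a1* lies on chromosome 11 (102348824 to 102366203, minus strand) and *Dmtn* on chromosome 14 (70601263 to 70636048, minus strand).

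Promoter sequences are shown for the globins and *Alas2*, and those of *Fech*, *Slc4a1* and *Dmtn* were not available. Across both sections, *Slc4a1* and *Dmtn* followed the globins about as closely as *Alas2* did. The pattern therefore does not set the shown genes apart. RefSeq promoters (GRCm38.p6) were given for 5 members, and the bases before the gene start are printed for 4 of them, 5′ to 3′ on the gene's strand. Capitals mark GATA with A or T before it and A or G after it, which the erythroid factor GATA1 can bind, and CACCC, which KLF1 can bind within longer sites, both searched on either strand. The windows are chr11:32296242-32296488 (plus strand), chr7:103828097-103828178 (minus), chr7:103813997-103814173 (minus) and chrX:150547167-150547374 (plus), ending before the outermost annotated start of each gene.
Hba-a2: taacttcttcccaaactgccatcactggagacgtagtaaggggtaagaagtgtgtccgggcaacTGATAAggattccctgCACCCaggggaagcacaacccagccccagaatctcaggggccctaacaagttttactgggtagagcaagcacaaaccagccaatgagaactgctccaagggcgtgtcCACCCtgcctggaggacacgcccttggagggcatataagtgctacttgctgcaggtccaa
Hbb-bs: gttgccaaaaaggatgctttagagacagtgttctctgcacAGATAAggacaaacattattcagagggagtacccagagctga
Hbb-bt: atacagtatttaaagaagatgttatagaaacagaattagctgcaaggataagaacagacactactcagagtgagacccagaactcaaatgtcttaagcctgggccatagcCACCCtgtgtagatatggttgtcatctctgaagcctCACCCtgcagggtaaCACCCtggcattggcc
Alas2: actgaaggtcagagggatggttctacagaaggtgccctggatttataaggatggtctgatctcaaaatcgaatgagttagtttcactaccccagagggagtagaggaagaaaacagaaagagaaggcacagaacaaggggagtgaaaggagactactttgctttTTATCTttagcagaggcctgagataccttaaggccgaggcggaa
Over the full 250 bases before the RefSeq start, the GATA letters occurred once each in *Hba-a2* (186 bases before the start), *Hbb-bs* (210 bases) and *Alas2* (86 bases), and in neither *Hbb-bt* nor *Alad*. CACCC occurred 2 times in *Hba-a2*, 1 time in *Hbb-bs*, 3 times in *Hbb-bt* and 3 times in *Alas2*, and was not found in *Alad*. Of all 27025 promoters of this length, 27.1% held the GATA letters and 51.3% held CACCC, and these matches only describe the windows.

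The share of globin transcripts was highest in cavity spots, and bone spots held far less. The cavity spots held 30.3% of all *Hba-a2* UMIs of the Control section and 34.6% of those of the Loaded section. In Control, the 3 globins made up 14.2% of the UMIs in cavity spots (14.1 to 14.3), 2.42% in bone (2.38 to 2.46), 1.14% in outer spots and 0.526% in muscle-rich spots. In Loaded, the shares were 10.7% (10.6 to 10.8), 2.98% (2.93 to 3.04), 2.21% and 0.774%. In spots that hold several cells, fewer cells of a type and less RNA per cell cannot be told apart. The order of the 4 regions was the same in both sections, with the highest share in the cavity and the lowest in muscle-rich spots. Single bone spots ranged from 0.426% to 10.1% in Control (median 2.64%) whereas Loaded bone spots lay between 0.358% and 7.74% (median 3.28%), and no bone spot was without globin UMIs. Cavity spots reached 29.4% and 29.5%. The map of globin share shows high shares between the bone spots and, in both sections, in tissue that continues past their ends.

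**Figure D1:**
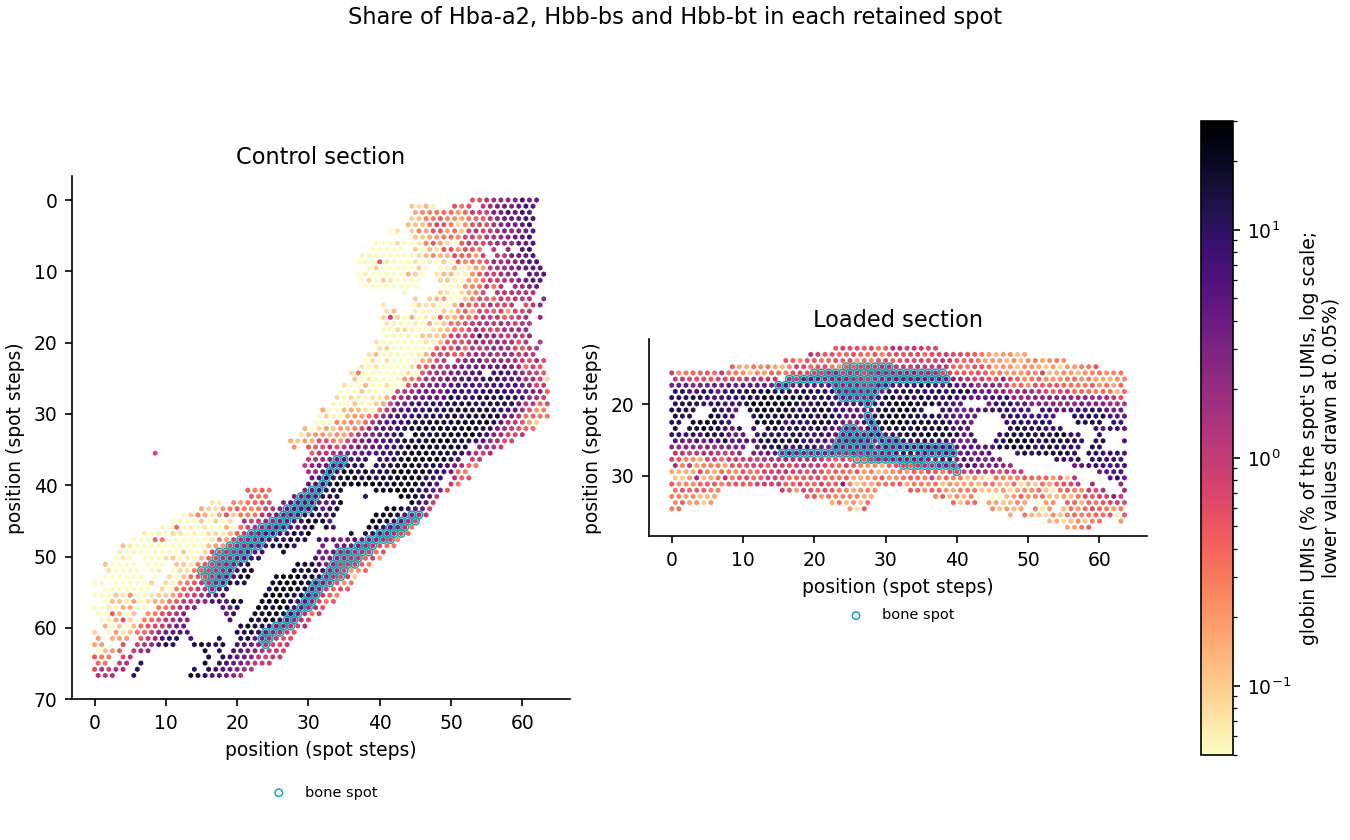
Share of *Hba-a2*, *Hbb-bs* and *Hbb-bt* among the UMIs of each retained spot (color, log scale), at its position on the capture grid in spot steps, with bone spots circled. Shares reach 29.4% in the Control cavity and 29.5% in the Loaded cavity, and bone spots lie between 0.358% and 10.1%.

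The erythroblast genes were also highest in cavity or granulocyte-rich spots, at lower counts, except for *Fech*. Together they made up 0.591% of the UMIs in the Control cavity, 0.0930% in bone and 0.0807% in outer spots, and 0.401%, 0.119% and 0.0956% in Loaded. From the cavity to outer spots, 7 of the 8 members were at least 2-fold higher in the cavity in both sections, beside 25.4% of all genes in Control and 20.1% in Loaded. From bone to the cavity, the same 7 members were at least 2-fold lower in bone in both sections, beside 17.9% of genes in Control and 12.5% in Loaded. The exception in all 4 comparisons was *Fech*.

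*Hbb-bs*, the beta globin with more UMIs, had 6469 UMIs in Control bone and 6440 in Loaded bone, or 36.1 and 46.2 normalized UMIs (UMIs of the region divided by its summed scran size factors, which scale spots to a common depth). Its cavity level was 217 in Control and 169 in Loaded. The bone level was 6.02-fold lower than the cavity level in Control (log2 -2.59, -2.63 to -2.55) and 3.66-fold lower in Loaded (log2 -1.87, -1.91 to -1.83). *Hba-a2*, the alpha globin, had 5920 and 4457 UMIs in bone, or 33.0 and 32.0 normalized UMIs, against 214 and 119 in the cavity. *Hbb-bt*, the second adult beta globin, had 1102 and 1310 UMIs, or 6.15 and 9.41 normalized UMIs, against 48.3 and 43.5 in the cavity. All bone spots carried *Hba-a2* and *Hbb-bs* UMIs, and all but 1 Control spot carried *Hbb-bt*.

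*Alas2* had 207 UMIs in Control bone and 185 in Loaded bone, or 1.15 and 1.33 normalized UMIs, against 9.89 and 6.13 in the cavity. Its level was therefore 8.56-fold lower in bone than in the cavity in Control (log2 -3.10, -3.32 to -2.88) and 4.61-fold lower in Loaded (log2 -2.21, -2.44 to -1.98). At an equal depth of 1000 UMIs drawn from every spot, for which 15 Loaded bone, 4 Control and 2 Loaded cavity, and 179 Control and 40 Loaded muscle-rich spots were too shallow, *Alas2* was found in 36.6% of Control bone spots (exact binomial interval 28.4 to 45.5) and 31.3% of Loaded bone spots (23.5 to 40.0), against 89.9% and 83.1% of cavity spots. Unthinned, 77.9% of Control and 61.6% of Loaded bone spots held an *Alas2* UMI. Muscle-rich spots held it in 17.0% (14.6 to 19.6) and 15.9% (13.2 to 18.9) after thinning, at a median of 4285 and 3360.5 UMIs per spot against 3478 and 2621 in bone. The share in bone was above that in muscle-rich spots in both sections. Muscle-rich spots are no erythroblast-free background, since 26 Control and 10 Loaded ones were also cavity spots and 34 and 22 were also granulocyte-rich. The 10% of them with the most globin UMIs held 54.9% and 43.8% of their globin UMIs.

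*Slc4a1* had 66 UMIs in Control bone and 65 in Loaded bone, or 0.368 and 0.467 normalized UMIs, against 3.47 and 1.55 in the cavity. *Dmtn* had 94 and 122 UMIs, or 0.524 and 0.876 normalized UMIs, against 3.42 and 2.72 in the cavity. *Alad* had 82 and 77 UMIs, or 0.457 and 0.553 normalized UMIs, against 2.41 and 1.65 in the cavity. Bone was below the cavity for all 3 genes in both sections, by between 2.99-fold for *Alad* in Loaded and 9.41-fold for *Slc4a1* in Control. After thinning, *Slc4a1* was found in 17.6% of Control (11.5 to 25.2) and 10.7% of Loaded bone spots (5.97 to 17.3). The muscle-rich spots held it in 10.0% (8.16 to 12.2) and 7.19% (5.35 to 9.41), and these intervals overlapped with those of bone in both sections. Its normalized level, which uses all UMIs, was higher in bone than in muscle-rich spots by log2 0.58 (0.18 to 0.97) in Control and 1.70 (1.23 to 2.16) in Loaded.

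**Figure D2:**
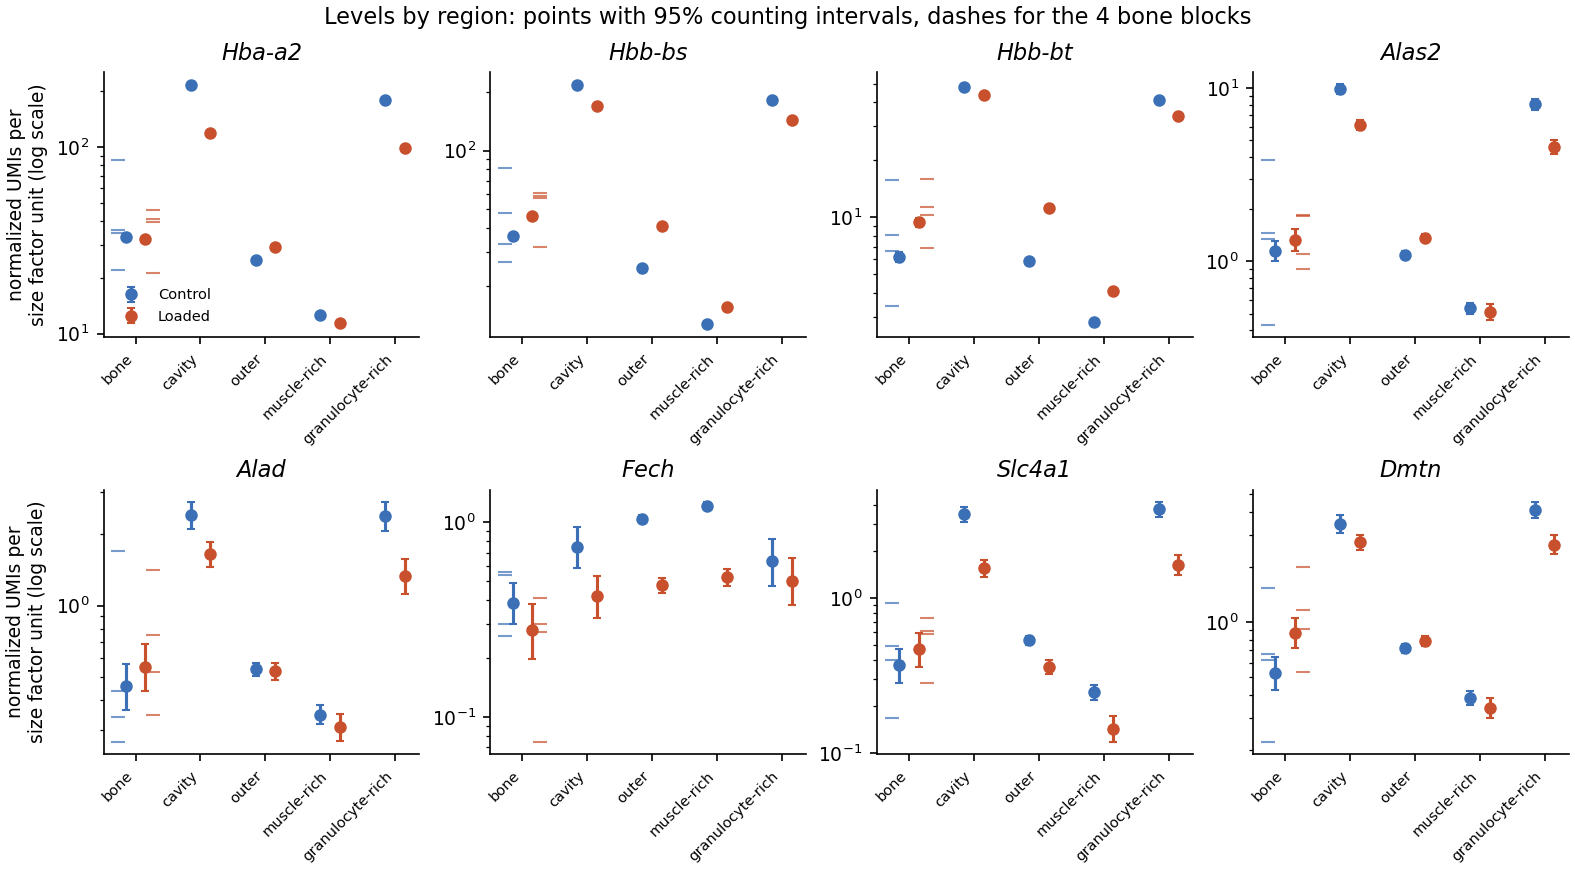
Normalized UMIs per unit of size factor for each member (log scale, with its own range in each panel) in 5 regions of the Control and Loaded sections, as points with 95% counting intervals, and in the 4 blocks of each bone region as dashes. All members but *Fech* were highest in cavity or granulocyte-rich spots.

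*Fech*, the last enzyme of heme synthesis, did not follow the globins. It lies on chromosome 18 of GRCm38 (64452914 to 64490251, minus strand). Its level in Control was 1.22 normalized UMIs in muscle-rich spots, 1.04 in outer spots, 0.749 in the cavity and 0.385 in bone. In Loaded it was 0.522, 0.474, 0.416 and 0.280 in the same order, and bone was the lowest region in both sections. Muscle-rich spots held 85.2% of all *Fech* UMIs of the Control section and 61.4% of those of the Loaded section, beside 78.0% and 59.6% of all UMIs. The cavity held 3.85% and 10.8% of the *Fech* UMIs, beside 3.61% and 10.2% of all UMIs. Relative to UMIs, muscle-rich and cavity spots were thus close in *Fech*, and their order above depended on the scaling of spots. Bone held 3.69% and 6.28% of the *Fech* UMIs, beside 6.20% and 8.33% of all UMIs. For *Hba-a2* the muscle-rich spots held 24.3% and 15.0%. Across tiles of the grid (6 rows by 12 columns), *Fech* had a correlation with the summed globins of -0.30 over 68 Control tiles and 0.13 over 48 Loaded tiles, and with the muscle list of 0.47 and -0.12. *Alad*, the other enzyme that all heme-making cells use, lay between them, with 37.4% and 24.5% of its UMIs in muscle-rich spots.

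The first comparison of globins with erythroblast genes used all 5 erythroblast genes. Bone held 26.0 globin UMIs per erythroblast UMI in Control (23.9 to 28.5) and 25.0 in Loaded (22.8 to 27.4). All other retained spots held 16.4 in Control (16.0 to 16.8) and 24.3 in Loaded (23.7 to 25.0). The ratio was higher in bone than elsewhere in Control (log2 0.67, 0.54 to 0.80), and the interval included no difference in Loaded (log2 0.04, -0.09 to 0.18). Set against the cavity alone, with 24.0 in Control and 26.6 in Loaded, the difference in bone was log2 0.12 (-0.03 to 0.26) in Control and -0.09 (-0.24 to 0.06) in Loaded. Control muscle-rich spots, which carried most of the *Fech* UMIs, held 10.3 globin UMIs per erythroblast UMI, and Loaded muscle-rich spots held 17.0. Without *Fech*, the Control difference of bone from all other spots was log2 0.53 and the Loaded one 0.01. The part of muscle in the Control difference was not tested further.

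With *Alas2* and *Slc4a1* alone as the erythroblast genes, a pair chosen with earlier results known, the ratio was nearly level across non-bone tissue. It was 35.9 in the Control cavity (34.0 to 38.0), 34.1 in outer spots (32.9 to 35.5), 36.2 in muscle-rich spots (34.0 to 38.5) and 33.9 in granulocyte-rich spots (31.9 to 36.2). In Loaded it was 43.3 (40.9 to 45.8), 47.0 (44.9 to 49.2), 47.4 (43.3 to 52.0) and 44.4 (41.1 to 48.0). The Loaded cavity lay slightly below outer spots (log2 -0.12, -0.22 to -0.01). *Slc4a1* alone was less level in Control, with 7.23 UMIs per 1000 globin UMIs in the cavity and 9.65 in outer spots. Its Loaded values were 4.66 and 4.41. *Dmtn*, *Alad* and *Fech* were not level. Per globin UMI, their cavity over outer values were log2 -0.86, -0.94 and -3.58 in Control. In Loaded they were -0.24, -0.39 and -2.22. Normalized globin levels were 17.0-fold higher in the cavity than in muscle-rich spots in Control and 10.7-fold higher in Loaded, while the ratio to *Alas2* and *Slc4a1* stayed between 33.9 and 36.2 in Control and between 43.3 and 47.4 in Loaded. Bone stood at 49.4 in Control (43.8 to 55.9) and at 48.8 in Loaded (43.1 to 55.6). The bone value was above the cavity in Control (log2 0.46, 0.27 to 0.66), and in Loaded the interval reached 0 (log2 0.17, -0.03 to 0.38). Per globin UMI, *Alas2* alone was lower in bone than in the cavity in Control (log2 -0.43, -0.65 to -0.21) and Loaded (-0.28, -0.52 to -0.05). *Slc4a1* alone was lower in Control (-0.56, -0.97 to -0.18), and in Loaded its interval included 0 (0.19, -0.23 to 0.59). *Dmtn* stood at -0.04 (-0.38 to 0.30) in Control and 0.29 (-0.02 to 0.58) in Loaded. *Alad* stood at 0.27 (-0.11 to 0.64) and 0.34 (-0.04 to 0.71). *Fech* was higher in bone in both, at 1.71 (1.21 to 2.21) and 1.35 (0.74 to 1.94). The higher Control bone ratio over the cavity thus held for the chosen pair and not for each of the 5 genes. In globins per *Alas2* or *Slc4a1* UMI, bone of the sections differed by log2 -0.02 (-0.27 to 0.24), Loaded over Control. The cavities differed by 0.27 (0.15 to 0.38).

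The Control difference was unevenly spread along the bone. The bone spots of each section were divided into 4 blocks, 2 parts on each of the 2 sides of the cavity. Globin UMIs per *Alas2* or *Slc4a1* UMI were 40.3 and 38.0 on side 1 of Control, and 49.0 and 86.8 on side 2. Side 1 thus lay near the cavity value, and the second part of side 2, with 46 *Alas2* and *Slc4a1* UMIs, lay far above it. Without this block the Control bone ratio was 41.8 and its difference from the cavity log2 0.22 (0.01 to 0.43). The Loaded blocks stood at 50.5, 65.9, 45.8 and 44.9. In Loaded, leaving out the second part of side 2 gave log2 0.27 (0.01 to 0.54) over the cavity, and leaving out each other block gave an interval that included 0. The muscle list made up 31.6% and 14.7% of UMIs on side 1 of Control and 9.12% and 6.58% on side 2, and its part in the ratio was not tested.

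**Figure D3:**
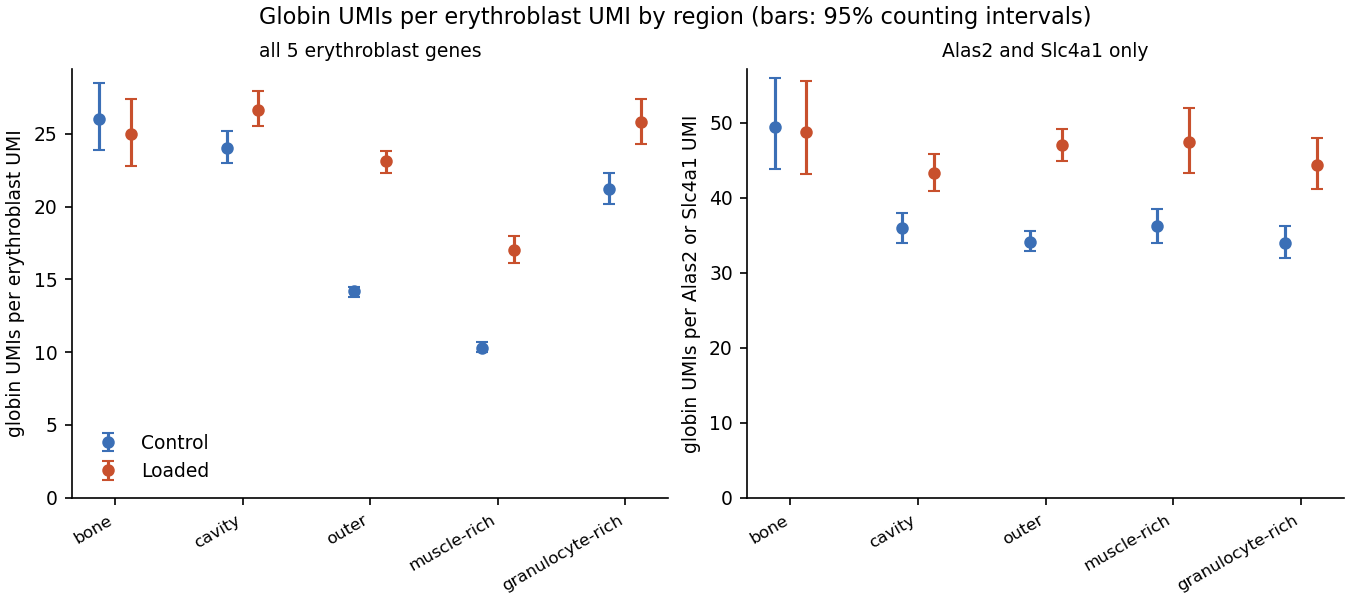
Globin UMIs per erythroblast UMI by region with 95% counting intervals, for all 5 erythroblast genes (left) and for *Alas2* and *Slc4a1* only (right), in Control and Loaded. On the left the muscle-rich spots are lowest (10.3 and 17.0), and on the right the Control regions outside bone lie between 33.9 and 36.2 and bone at 49.4.

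Globin and *Alas2* levels were lower far from the cavity than near it, though not at every step. Among retained spots within the axial range of the bone regions, the globin share in Control was 14.2% in the cavity, 5.26% at 1 spot step from it, 2.88% at 2 steps, 1.97% at 3 steps and 1.24% at 4 steps. In Loaded it was 10.7%, 4.82%, 2.91%, 2.57% and 1.76%. *Alas2* took 2930, 934, 501, 387 and 223 CPM (UMIs scaled to the same total in each bin) at the same distances of Control, and 1973, 770, 476, 478 and 241 in Loaded. At 5 to 6 steps, pooled Control counts were slightly above those at 4 steps, with 1.31% globins and 299 CPM of *Alas2*. Loaded had less, with 0.750% and 134 CPM. The median Control spot held less globin at 5 to 6 steps (0.380%) than at 4 steps (0.718%). The highest Control spot at 5 to 6 steps reached 25.3%. At 10 to 14 steps, globins were at 0.0768% over 20 Control spots and 0.170% over 10 Loaded spots, and *Alas2* together with *Slc4a1* had 2 UMIs in each section. *Fech* in Control stood at 222 CPM in the cavity, at 88.7 at 2 steps and at 236 at 7 to 9 steps, where the muscle list made up 42.6% of UMIs. In Loaded, *Fech* stood at 134 CPM in the cavity, 113 at 2 steps, 161 at 4 steps and 120 at 7 to 9 steps. The plot of levels with distance shows globins and *Alas2* beside the course of *Fech* and the muscle list.

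**Figure D4:**
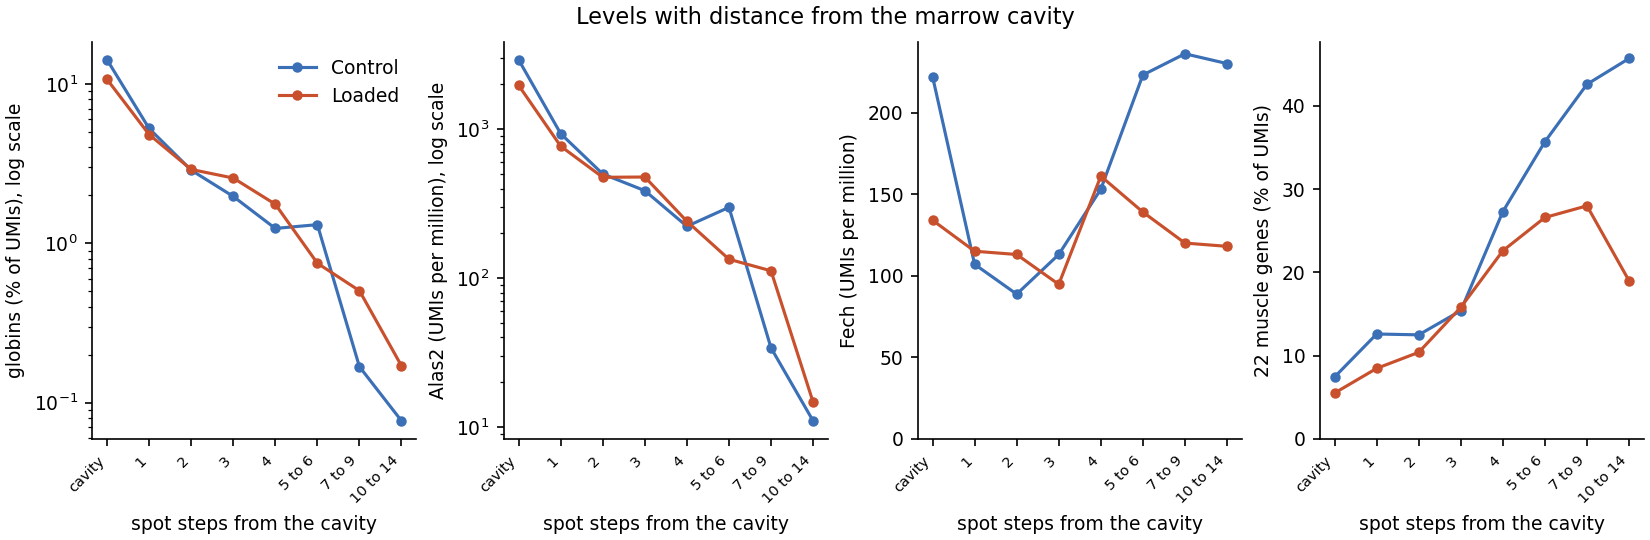
Globin share (% of UMIs, log scale), *Alas2* (CPM, log scale), *Fech* (CPM) and the 22-gene muscle list (% of UMIs) against the distance from the cavity in spot steps, in the Control and Loaded sections. Globins stand at 14.2% in the Control cavity and 0.0768% at 10 to 14 steps, and at 10.7% and 0.170% in Loaded.

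Bone spots adjacent to a cavity spot carried more of nearly all members than other bone spots. In Control 7 members were above 0, beside 48.3% of 8046 genes, and in Loaded 8 were, beside 48.8% of 7329 genes. The exception was *Fech* in Control, at log2 -0.54 (-1.45 to 0.29), and its Loaded interval included 0 (0.19, -0.79 to 1.18). The adjacent spots numbered 54 of 131 in Control (41.2%) and 78 of 146 in Loaded (53.4%). Their globin share was 4.36% in Control (4.26 to 4.46) against 1.62% (1.58 to 1.66) in the other bone spots, and 3.99% (3.90 to 4.07) against 2.05% (1.99 to 2.11) in Loaded. The erythroblast genes were 2.19-fold higher in the adjacent spots in Control (log2 1.13, 0.88 to 1.39) and 2.09-fold higher in Loaded (log2 1.06, 0.79 to 1.34). Globin UMIs per *Alas2* or *Slc4a1* UMI were 49.6 in adjacent and 49.2 in other bone spots of Control, and 49.0 and 48.6 in Loaded. The granulocyte list also stood higher in the adjacent spots, at 0.159% against 0.0687% in Control and 0.550% against 0.220% in Loaded. The part of marrow cells in the higher values of adjacent spots was not tested.

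The Loaded and Control bone regions differed little in these genes. Loaded over Control, the globins were at log2 0.22 (0.18 to 0.26), or 1.17-fold, and the erythroblast genes at log2 0.28 (0.10 to 0.46), or 1.21-fold. None of the 8 members was 2-fold higher or lower, beside 11.3% of 10003 genes that were higher and 9.24% that were lower, and the median log2 of all genes was 0.06. Other marker lists differed between the same bone spots: the muscle list made up 17.6% of UMIs in Control and 9.17% in Loaded, the granulocyte list 0.0951% and 0.379%, and the megakaryocyte and platelet list 0.0242% and 0.0619%. Their part in the members' values was not tested. *Dmtn* had the highest value, log2 0.74 (0.34 to 1.14), followed by *Hbb-bt* at 0.61 (0.50 to 0.73), *Hbb-bs* at 0.36 (0.31 to 0.41), *Slc4a1* at 0.34 (-0.17 to 0.86), *Alad* at 0.27 (-0.19 to 0.74) and *Alas2* at 0.20 (-0.09 to 0.50). *Hba-a2* stood at -0.04 (-0.10 to 0.01) and *Fech* at -0.46 (-1.06 to 0.13). The intervals of *Alas2*, *Alad*, *Slc4a1*, *Hba-a2* and *Fech* included 0.

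These differences were smaller than the spread within a section. Normalized globin UMIs lay between 52.0 and 182 in the 4 Control blocks and between 59.7 and 119 in the Loaded blocks. For each of the 8 members the blocks of both sections overlapped. How many of all genes had overlapping blocks was not counted, so the overlap does not set the members apart. Without the second part of side 2 of Control, the globin difference was log2 -0.08 and that of the erythroblast genes to -0.19. Among bone spots adjacent to the cavity, which were a larger share of the Loaded bone region, the globins were at log2 -0.14 (-0.18 to -0.09), Loaded over Control, and among the other bone spots at 0.22 (0.16 to 0.27). In the 14 Control and 22 Loaded bone spots with a muscle share below 5%, the globins were at log2 0.85 (0.75 to 0.95), Loaded over Control. The erythroblast genes were at 1.27 (0.69 to 1.88), from 4 to 11 Control UMIs for each gene. The median of the 8 members was log2 1.12 in these spots, beside 0.14 over 3925 genes. The intervals of *Alad* (-0.34 to 2.58), *Slc4a1* (-0.40 to 3.06) and *Fech* (-1.94 to 1.41) included 0.

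The direction differed between the regions outside bone. In outer spots, which include marrow, the globins were higher in Loaded by log2 0.55 (0.54 to 0.56). The erythroblast genes stood at -0.15 (-0.21 to -0.10) there. Singly, *Fech* was at -1.13 (-1.27 to -0.98), *Slc4a1* at -0.58 (-0.76 to -0.41) and *Alad* at -0.02 (-0.18 to 0.13). *Dmtn* was at 0.13 (0.00 to 0.26) and *Alas2* at 0.33 (0.23 to 0.43), and *Alas2* with *Slc4a1* at 0.09 (0.01 to 0.18). As shares of outer UMIs, both summed sets were higher in Loaded, the globins at 2.21% against 1.14% and the erythroblast genes at 0.0956% against 0.0807%. The sign of the erythroblast value in outer spots therefore depended on the genes summed and on the scaling of spots. All 8 members were lower in the Loaded cavity, beside 47.5% of 9958 genes that were above 0 and a median over all genes of -0.04. The globins were lower by log2 -0.53 (-0.55 to -0.51) and the erythroblast genes by -0.68 (-0.77 to -0.59). *Slc4a1* had the lowest value, log2 -1.16 (-1.41 to -0.92), from 333 to 249 UMIs, and *Hbb-bt* the one nearest to 0, at -0.15 (-0.20 to -0.10). The granulocyte list made up 0.422% of UMIs in the Control cavity and 0.935% in the Loaded cavity, and its part in the result was not tested. In muscle-rich spots *Fech* was lower in Loaded by log2 -1.23 (-1.39 to -1.06), from 1592 of 7003919 to 381 of 2927595 UMIs. As a share of UMIs *Fech* was lower by less than 2-fold, so the size of this difference depended on the scaling of spots. The muscle list made up 38.4% of UMIs there in Control and 27.0% in Loaded, and its part was not tested. The globins stood at 0.14 (0.11 to 0.16) in these spots.

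Bone against all other spots gave no member that was 2-fold higher in bone in either section, beside 7.85% of genes in Control and 6.72% in Loaded. *Fech* in Control was the single member at least 2-fold lower in bone (log2 -1.41, -1.78 to -1.06), beside 11.2% of genes in Control. In Loaded none was, beside 9.69% of genes. As a share of UMIs, *Fech* was lower by less than 2-fold, with 69 of 557259 UMIs in Control bone and 1800 of 8426953 in other spots. This call therefore depended on the scaling of spots. For the globins, bone over other was log2 -0.06 (-0.09 to -0.04) in Control and -0.38 (-0.40 to -0.35) in Loaded. As a share of UMIs, the Control globins were higher in bone, at 2.42% against 1.65% in other spots. The sign of the Control globin value therefore depended on the scaling of spots. The Loaded shares were 2.98% in bone and 3.15% in other spots. For the erythroblast genes, bone over other was log2 -0.73 (-0.86 to -0.60) in Control and -0.42 (-0.55 to -0.28) in Loaded. As a share of UMIs, the erythroblast genes were lower in bone by less in both sections. Control bone held 518 erythroblast UMIs of 557259, and Control other spots 8453 of 8426953. The Loaded counts were 488 of 409020 and 5832 of 4499787. The size of both erythroblast values therefore depended on the scaling of spots.

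The ratio of alpha to beta globin separated the sections rather than the regions. *Hba-a2* UMIs per *Hbb-bs* UMI were 0.984 in the Control cavity (0.965 to 1.00), 0.996 in outer spots (0.982 to 1.01) and 0.980 in muscle-rich spots (0.959 to 1.00). In Loaded they were 0.703 (0.690 to 0.716), 0.718 (0.707 to 0.728) and 0.732 (0.711 to 0.753). Over all retained spots, the ratio was lower in Loaded by log2 -0.47 (-0.49 to -0.45). Bone stood at 0.915 in Control (0.883 to 0.948) and 0.692 in Loaded (0.666 to 0.719). Its Control blocks were at 1.05 on both parts of side 1 and at 0.753 and 0.827 on side 2, and the Loaded blocks lay between 0.665 and 0.811, so that the blocks overlapped. Loading, mouse and section cannot be told apart in this difference, and the 2 genes have different probes.

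*Hbb-bt* showed a difference between regions that had the same direction in both sections. *Hbb-bt* UMIs per *Hbb-bs* UMI were 0.222 in the Control cavity (0.215 to 0.229) and 0.170 in bone (0.160 to 0.182), and 0.257 (0.250 to 0.264) and 0.203 (0.192 to 0.216) in Loaded. The ratio was thus lower in bone than in the cavity by log2 -0.38 (-0.49 to -0.28) in Control and -0.34 (-0.43 to -0.24) in Loaded. With each block left out in turn, the difference lay between -0.51 and -0.23 for Control and between -0.41 and -0.20 for Loaded. Single blocks lay between 0.128 and 0.203 in Control and between 0.178 and 0.279 in Loaded, and 1 Loaded block, the first part of side 2, stood above its cavity.

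**Figure D5:**
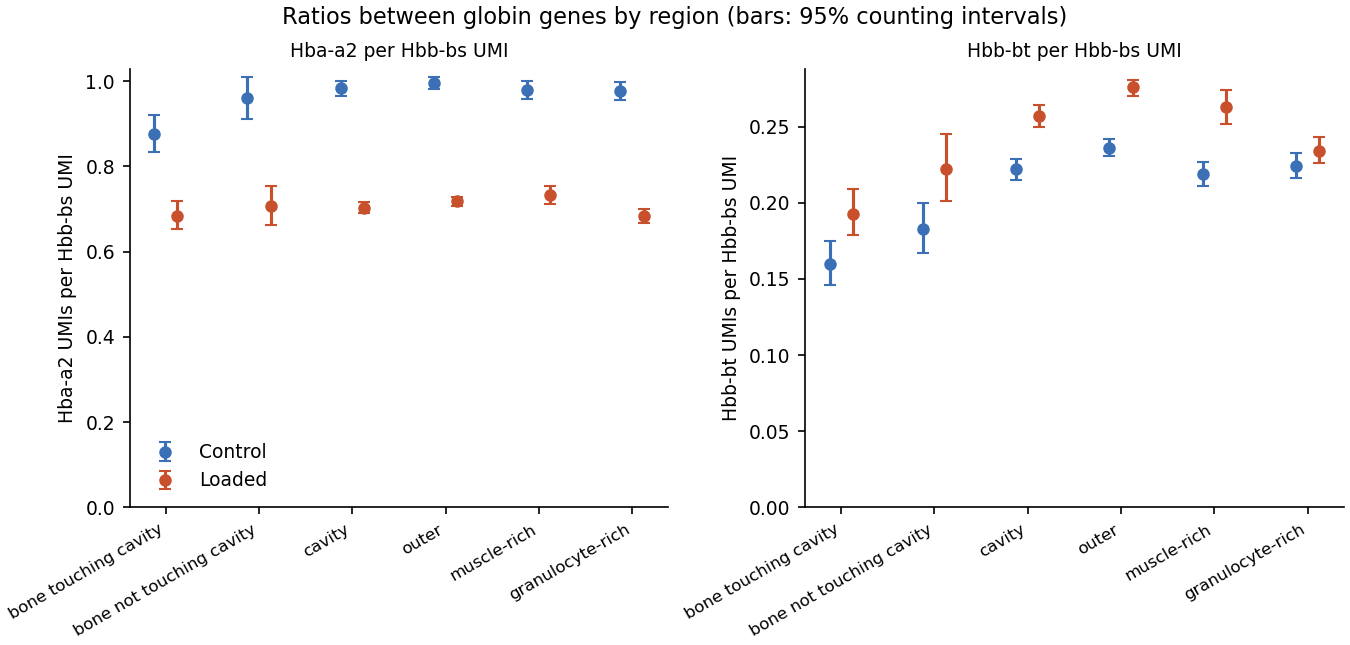
*Hba-a2* (left) and *Hbb-bt* (right) UMIs per *Hbb-bs* UMI by region, with 95% counting intervals, in Control and Loaded. On the left the Control regions lie between 0.876 and 0.996 and the Loaded regions between 0.684 and 0.732, and on the right both groups of bone spots lie below the cavity in each section.

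Across tiles of the grid, the members other than *Fech* varied together. The correlation with the summed globins, on the log2 scale of CPM with a pseudocount of 10, was 0.95 in Control and 0.98 in Loaded for *Alas2*, 0.94 and 0.96 for *Slc4a1*, 0.97 and 0.95 for *Dmtn*, and 0.90 and 0.93 for *Alad*, over 68 and 48 tiles that share a library. The globins had a correlation of 0.95 and 0.91 with the granulocyte list, 0.91 and 0.96 with the B cell and plasma cell list, and -0.75 and -0.77 with the muscle list. Their correlation with the UMI total of the tile was -0.65 and -0.47. Of 4277 genes with at least 200 UMIs in each section, the non-members most like the globins included *Ube2l6*, *Hist4h4*, *Hist1h1b*, *Hist1h3d*, *Hist1h2bb*, *Car2*, *Mki67*, *Hist1h3c* and *Hist2h2bb*. The lower of the 2 correlations ran from 0.97 for *Ube2l6* to 0.94 for *Hist2h2bb*. *Ube2l6* is highly expressed in late erythroid cells, *Car2* encodes a carbonic anhydrase, *Mki67* marks dividing cells, and the 6 *Hist* genes encode histones, whose near-identical copies may share probes.

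The 6 other lists of 76 erythroid and iron genes, of which 70 were counted, were read beside the members, and 26 of these genes had at least 50 UMIs over both bone regions. In the cavity against outer spots, where 25.4% of all genes in Control and 20.1% in Loaded were at least 2-fold higher, 12 of 14 late erythroid genes were so in each section, as were 11 of 15 red cell membrane genes in each section and 9 and 8 of 10 erythroid transcription factors and receptors. Of the 15 genes of heme synthesis and mitochondrial iron, 7 were at least 2-fold higher in the Control cavity and 6 in the Loaded cavity. Of the 10 genes of iron uptake, storage and heme breakdown, 5 and 3 were, the latter close to the share of all genes. The embryonic and minor globins were barely counted: none of the 6 in the files reached 10 UMIs over both bone regions.

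In Loaded over Control bone, 1 of 14 heme synthesis genes with at least 10 UMIs was 2-fold higher and none lower, and 2 of 9 iron genes were higher and none lower. Of the red cell membrane genes 2 of 13 were higher and 1 lower, of the transcription factors 1 of 5 was higher and 1 lower, and of the late erythroid genes none of 13 was higher and 2 were lower. With 11.3% of all genes higher and 9.24% lower, these counts are too small to be set apart from the background. Among those with at least 50 UMIs, *Blvra*, a biliverdin reductase, was at log2 1.27 (0.62 to 1.95), *Hmox1*, the heme oxygenase that breaks down heme, at 1.18 (0.55 to 1.84), and *Myb*, a factor of early blood progenitors, at 0.92 (0.22 to 1.64). The lowest were *Ank1* at -0.83 (-1.19 to -0.48), *Slc25a39* at -0.82 (-1.56 to -0.12) and *Sptb* at -0.71 (-1.58 to 0.11). *Slc25a39* encodes a mitochondrial carrier, and *Ank1* and *Sptb* encode an ankyrin and a spectrin of the red cell skeleton that muscle also expresses. Across tiles, the correlation of *Ank1* with the globins was -0.47 in Control and -0.42 in Loaded, and that of *Sptb* was -0.18 and -0.23.

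Among the 26 listed genes with at least 50 UMIs over both bone regions, *Hmox1* had the highest bone over other value in both sections, log2 0.37 (-0.19 to 0.89) in Control, from 34 bone UMIs, and 0.53 (0.11 to 0.92) in Loaded, from 60. It was followed in Control by *Mkrn1* at 0.36 (-0.15 to 0.83) and *Steap3*, a ferric reductase, at 0.25 (-0.23 to 0.69), and in Loaded by *Blvra* at 0.22 (-0.20 to 0.61) and *Mkrn1* at 0.10 (-0.44 to 0.60). Intervals of all of these but *Hmox1* in Loaded included 0. Control bone held 557259 UMIs over summed size factors of 179, and Control other spots 8426953 over 1764. The Loaded values were 409020 over 139 and 4499787 over 1247. As shares of UMIs, every bone over other value would be higher in both sections, more so in Control. Whether these intervals included 0, and how low the lowest values were, therefore depended on the scaling of spots. The lowest of the 26 were *Tmod1*, an actin-capping tropomodulin, at -1.51 (-1.86 to -1.18), *Urod*, an enzyme of heme synthesis, at -1.25 (-1.79 to -0.75) and *Ank1* at -1.17 (-1.37 to -0.98) in Control, and *Ank1* at -1.03 (-1.34 to -0.73), *Tmod1* at -0.96 (-1.44 to -0.51) and *Sptb* at -0.89 (-1.64 to -0.22) in Loaded.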

How the data were processed

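Visium libraries of 1 Control and 1 Loaded femur section were aligned and counted by the authors with SpaceRanger 2.0.0 (mm10), and the deposited values are raw UMI counts per gene and spot, not normalized. Spots with at least 500 UMIs and 250 genes were retained, after the study's filter. Bone spots are the study's barcodes. Sums over a region were divided by summed scran 1.30.0 size factors (R 4.3.3, all retained spots of both sections). The study's DESeq2 test on spots was not repeated. Intervals (Python 3.11.15, scipy 1.17.1) are exact Poisson, binomial, conditional binomial and noncentral hypergeometric intervals at 95%, and were tested on simulated data. A sum of 0 was set to 3 UMIs. Genes needed 10 UMIs over the regions compared, and 50 to be named from a list. From each list comparison the 3 highest and 3 lowest are named, and across tiles (10 spots or more) the 10 genes most like the globins, of which 1 is not reported here. Members, lists and alternatives were chosen with earlier results of these data known. Alternatives were TMM factors (edgeR 4.0.16), library totals, other gene sets, regions and filters, and blocks left out.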

Additional observations from a re-analysis of the deposited data

How the results depend on the processing

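For the globins in bone, Loaded over Control (log2 0.22), library totals gave 0.30, TMM factors 0.17, scran factors over bone spots only 0.18, bone spots with a muscle share below 5% gave 0.85, leaving out the 10% of spots with the highest globin share 0.18, and *Hbb-bs* with *Hbb-bt* alone 0.40. Leaving out blocks in turn gave -0.08 to 0.56 for the globins and -0.19 to 0.62 for the erythroblast genes (0.28), the negative values both without the second part of side 2 of Control. The low-muscle spots gave 1.27 for the erythroblast genes. With spots adjacent to the cavity alone, a choice made after seeing the data, the values were -0.14 and 0.05, and with the other bone spots 0.22 and 0.12. For the globin to erythroblast ratio in Control, bone over other (log2 0.67), low-muscle spots gave 0.99, leaving out the 10% of spots with the highest globin share 1.01, *Alas2* and *Slc4a1* alone 0.51, the cavity as the comparison 0.12, granulocyte-rich spots 0.30, no *Fech* (chosen after seeing the data) 0.53, and blocks left out 0.50 to 0.83. The same ratio in Loaded (0.04) stayed within its counting interval under all alternatives run, with blocks left out at -0.01 to 0.10. The cause of these shifts was not tested. With at least 50 UMIs per gene, 270 of 3914 genes were 2-fold higher in Loaded bone and 287 lower. At 10 UMIs, 1135 of 10003 genes were higher and 924 lower. No paired analysis was possible because each group holds 1 section. Depth limits *Slc4a1*, *Fech* and *Alad* most, with 39 to 82 UMIs per bone region.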
